A study of Mus musculus with 2 samples.

Results

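The genes described here are 8 response genes of fibroblast growth factor (FGF) and ERK signalling, Etv1, Etv4, Etv5, Dusp6, Spry1, Spry2, Spry4 and Spred1, out of 32285 genes in the deposited matrices. They were chosen by name, and all 8 had UMIs (unique molecular identifiers, each counted as 1 RNA molecule) in both libraries. FGF ligands bind receptor tyrosine kinases, which activate the kinase ERK through RAS, RAF and MEK. Active ERK raises the transcription of the PEA3 group of ETS transcription factors (Etv1, Etv4 and Etv5) and of inhibitors that act back on the pathway. Dusp6 is a phosphatase that inactivates ERK, and the Sprouty proteins (Spry1, Spry2, Spry4) and Spred1 dampen signalling upstream of ERK. In mouse skin, FGF20 from the hair placode, a thickening of the epidermis at the site of a future follicle, acts on the dermis below it, where fibroblasts gather into a dermal condensate.

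Single-cell RNA profiles were made from flank and dorsolateral skin of mouse embryos at E14.5, the stage of the first hair placodes. In the Wntless mutant library a K14Cre transgene, which drives Cre recombinase in epidermal keratinocytes, had been bred to Wntless fl/fl, a conditional allele. Wntless (gene symbol Wls) encodes the carrier that Wnt ligands need to leave the cell that makes them. The wildtype library came from littermates, whose alleles are not described further in the sources used here. Each library pooled cells of 2 to 3 embryos of its genotype, sorted after DAPI staining, and both were made side by side. With 1 library a genotype no difference has a replicate check, so no p-value is given and all intervals are 95% intervals of counting error alone.

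The Wntless mutant library held 10449 barcodes with a median of 14602 UMIs, and the wildtype library 9065 with a median of 11341. The dermis was the authors' list of dermal barcodes, 5028 mutant and 5300 wildtype cells, and all 10 fibroblast markers had UMIs in both. Other classes came from joint clustering, and a cluster was named from its markers. Of the 21 clusters, cluster 5, led by the condensate genes Foxd1, Gal, Sox18 and Sox2 and the Hedgehog receptor gene Ptch1, held 17 mutant and 1679 wildtype cells. The epidermis was the keratinocyte-like cluster, 160 mutant and 489 wildtype cells, in which all 13 keratinocyte markers had UMIs, with a summed level of 5680 CPM (UMIs scaled to a class total of 1000000) in the mutant, against 5610 CPM in the wildtype. Wls had 23 UMIs (5.49 CPM) in mutant epidermis and 1055 UMIs (131 CPM) in wildtype epidermis, a log2 ratio of -4.58 (-5.24 to -3.98). In the dermis, which K14Cre does not target, Wls stood at 77.0 CPM in the mutant, against 91.8 CPM in the wildtype. These 3' tags do not show which exons were removed.

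The 8 genes lie on 8 chromosomes. On GRCm38, Etv1 spans 38779380 to 38870484 of chromosome 12, Etv4 spans 101769742 to 101785371 of chromosome 11 and Etv5 spans 22381309 to 22439719 of chromosome 16. Dusp6 spans 99263231 to 99267489 of chromosome 10, and Spry1 spans 37639947 to 37644598 of chromosome 3. Spry2 lies on chromosome 14 and Spred1 on chromosome 2, and all 8 genes are annotated as protein coding. Upstream windows from RefSeq (build GRCm38.p6) were matched by symbol for 6 of the 8 genes, with 8 start sites in all. Shown are the 250 bases before the start of Dusp6 (chr10:99262981-99263230, plus strand) and of Spry1 (chr3:37639697-37639946, plus strand), because these 2 inhibitors had lower levels in the mutant in both skin layers. Capitals mark the ETS core GGAA or, for a match on the other strand, its reverse complement TTCC.
Dusp6: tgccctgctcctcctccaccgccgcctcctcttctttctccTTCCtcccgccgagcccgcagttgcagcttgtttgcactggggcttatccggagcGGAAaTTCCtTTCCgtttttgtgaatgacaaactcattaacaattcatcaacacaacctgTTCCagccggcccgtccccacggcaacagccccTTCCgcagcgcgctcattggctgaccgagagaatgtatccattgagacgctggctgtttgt
Spry1: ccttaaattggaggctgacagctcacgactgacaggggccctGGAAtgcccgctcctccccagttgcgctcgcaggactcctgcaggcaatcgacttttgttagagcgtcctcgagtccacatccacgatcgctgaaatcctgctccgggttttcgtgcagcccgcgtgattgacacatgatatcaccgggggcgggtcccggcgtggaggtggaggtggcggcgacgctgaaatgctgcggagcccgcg
The Dusp6 window held 6 matches of GGAA and the Spry1 window 1, and 7 of the 8 windows of the 6 genes held at least 1. That core is common, since 93.4% of 32851 windows of the same length held it on either strand. The longer ETS sequence CCGGAAG (6.91% of windows), which contains GGAA, and the TCF/LEF sequence ATCAAAG (3.21%) were in none of the 8 windows. A match describes the letters in the window and shows no binding.

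The 8 genes had their highest levels in different cell types (level here is CPM over the class, compared within a gene only). Among the transcription factors, Etv4 in wildtype skin was highest in epidermis (46.8 CPM, interval 42.2 to 51.8), followed by endothelial-like cells (19.0 CPM, 11.7 to 29.0) and dermis (8.37 CPM, 7.67 to 9.11), and neighbours in this order did not overlap. In mutant skin the order of Etv4 opened with endothelial-like cells (15.5 CPM), and epidermis stood at 0.239 CPM. Etv1 and Etv5 were highest in macrophage-like cells of both genotypes, Etv1 at 31.9 CPM in the mutant, against 30.9 CPM in the wildtype, and Etv5 at 33.1 CPM in the mutant, against 34.4 CPM in the wildtype. Neither changed by 1.5-fold in those cells.

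Dusp6 in wildtype skin was highest in epidermis at 143 CPM (134 to 151), above macrophage-like (73.5 CPM), Schwann- or neural crest-like (63.1 CPM) and endothelial-like cells (61.4 CPM), whose intervals overlapped one another. In mutant skin the same 3 types led, at 79.4 CPM in macrophage-like, 70.2 CPM in endothelial-like and 62.6 CPM in Schwann- or neural crest-like cells, while epidermis stood at 4.30 CPM. The Sprouty genes were read mostly in mesenchyme. Spry4 was highest in mural-like cells, the contractile cells around vessels, at 50.8 CPM in the mutant, against 43.8 CPM in the wildtype. Spry1 had 52.8 CPM in mutant and 45.6 CPM in wildtype mural-like cells, and the wildtype interval overlapped those of the fibroblast clusters off the dermal list (51.7 CPM) and of the dermis (40.6 CPM). Spry2 was highest in dermis in both genotypes, at 73.4 CPM in the mutant, against 78.2 CPM in the wildtype. Spred1 was also led by dermis, at 79.8 CPM in the mutant, against 85.9 CPM in the wildtype, and in the mutant its interval overlapped those of macrophage-like (78.4 CPM), Schwann- or neural crest-like (72.4 CPM) and melanoblast-like cells (70.5 CPM). Erythroid-like cells gave at most 1.60 CPM for any of the 8 genes in either library.

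**Figure D1:**
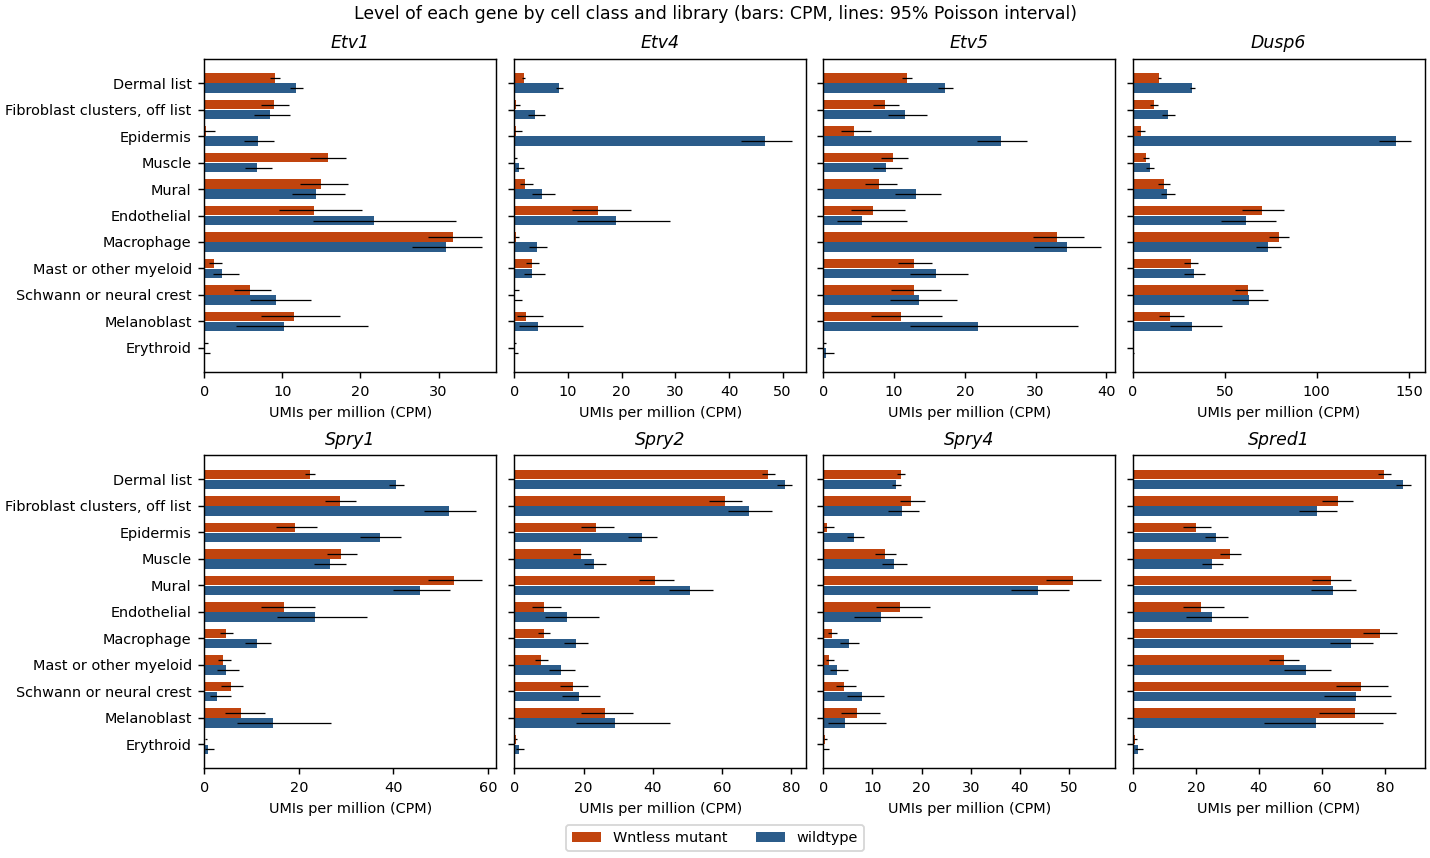
Level of each gene in CPM (horizontal axis) in 11 cell classes, with the Wntless mutant bar above the wildtype bar and lines for the 95% Poisson interval. Etv4 and Dusp6 are highest in wildtype epidermis (46.8 and 143 CPM) and near 0 in mutant epidermis (0.239 and 4.30 CPM), while Dusp6 in macrophage-like, endothelial-like and Schwann- or neural crest-like cells differs by less than 1.5-fold between the libraries.

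In the epidermis, where the Wntless gene was targeted, 7 of the 8 genes were at least 1.5-fold lower in the mutant, against 14.9% of all measured genes (those with 20 or more UMIs over both libraries). Their median log2 ratio was -2.84, beside -0.10 for all measured genes, and none was 1.5-fold higher, against 7.74%. Etv4 had 1 UMI (0.239 CPM) in mutant epidermis and 377 UMIs (46.8 CPM) in wildtype epidermis, a log2 ratio of -7.62 with a counting interval of -12.92 to -5.13. Etv1 had 1 UMI in the mutant and 55 in the wildtype (log2 ratio -4.84, -10.17 to -2.30). Etv5 had 18 UMIs (4.30 CPM) in the mutant and 202 UMIs (25.1 CPM) in the wildtype, a log2 ratio of -2.55 (-3.33 to -1.85). All 3 PEA3 factors were thus among the lower genes.

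The inhibitors spread over a wider range. Dusp6 had 18 UMIs (4.30 CPM) in mutant epidermis and 1149 UMIs (143 CPM) in wildtype epidermis, 33.2-fold lower in the mutant, with a log2 ratio of -5.05 (-5.81 to -4.39). Spry4 had 3 UMIs in the mutant and 51 in the wildtype (log2 ratio -3.14, -5.47 to -1.52). Spry1 stood at 19.1 CPM in the mutant, against 37.1 CPM in the wildtype (log2 ratio -0.96, -1.33 to -0.60). Spry2, at 23.6 CPM in the mutant, against 37.0 CPM in the wildtype, had a log2 ratio of -0.65 (-0.99 to -0.31), which came under 1.5-fold with median-of-ratios scaling (-0.55) and in cells thinned to 9000 UMIs (-0.41). Spred1 was the gene between the limits, at 20.0 CPM in the mutant, against 26.4 CPM in the wildtype (-0.40, -0.78 to -0.03). Fibroblast markers, 10 of 10 with UMIs in both libraries, summed to 1430 CPM in mutant and 1540 CPM in wildtype epidermis. Of the condensate genes, Sox2 had 0 UMIs in mutant and 40 in wildtype epidermis and Foxd1 had 0 in the mutant and 15 in the wildtype. Of those Sox2 UMIs 32 lay in wildtype cells with 3 or more of the 8 placode genes listed below, where Sox18, Foxd1 and Gal had 0. Mast or other myeloid markers summed to 15.7 CPM in the mutant, against 162 CPM in the wildtype. In the wildtype they summed to 311 CPM with 3 or more placode genes, against 66.7 CPM with 0 or 1. Gata2, Mcpt4, Hdc, Ms4a2, Fcer1a and Il1rl1 had 0 UMIs in the former. The part of the fibroblast, condensate and myeloid markers in the result was not tested. Among epidermal cells with at most 1% collagen UMIs the count of lower genes was again 7. That limit left out only 5 mutant and 3 wildtype cells, so it could change the count little.

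Cells with placode genes were frequent in wildtype epidermis and rare in mutant epidermis. With UMIs of at least 3 of 8 placode genes (Dkk4, Shh, Bmp2, Edar, Lhx2, Sp5, Ltb, Wnt10b) taken as the mark of a placode cell, there were 4 in the mutant and 210 in the wildtype. Dkk4, a secreted Wnt inhibitor made by placodes, had 0 UMIs in mutant epidermis and 2213 in wildtype epidermis. The ratios over the whole epidermis therefore compare unlike mixtures of cells. In the wildtype library alone, 7 of the 8 response genes were at least 1.5-fold higher in the 210 cells with placode genes than in the 223 cells with 0 or 1 of them, against 16.0% of all measured genes, and their median log2 ratio was 1.39 beside 0.08 for all.

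The transcription factors and Dusp6 carried the widest contrast. Etv4 stood at 87.7 CPM in placode cells and 16.0 CPM in the cells with 0 or 1 placode genes, a log2 ratio of 2.45 (2.05 to 2.87). Etv5 had 48.4 CPM in placode cells and 9.05 CPM in the others (2.42, 1.88 to 2.99), and Dusp6 had 265 CPM in placode cells and 51.0 CPM in the others (2.38, 2.15 to 2.61). These 3 genes stood between 5.20-fold and 5.47-fold higher, with overlapping intervals. Etv1 followed with 31 UMIs in placode cells and 10 in the others (1.90, 0.84 to 3.10). The Sprouty genes differed less, with log2 ratios of 0.63 for Spry1, 0.82 for Spry2 and 0.88 for Spry4 (29 UMIs in placode cells, 19 in the others), and Spred1 was between the limits at 0.30. The call for Spry1 was lost with means over cells (0.25), with thinned cells (0.57) and with 4 or more placode genes as the mark (0.27). The call for Spry4 was lost with means over cells (0.37), with thinned cells (0.07) and without the top 8% of doublet scores (0.56), and that for Spry2 with 4 or more placode genes as the mark (0.52). With that mark the other side was all cells with 0 to 3 placode genes, so both sides of the comparison changed. Spry2 stood at 55.2 CPM with 4 placode genes and 43.9 CPM with 5 or more, against 26.6 CPM with 0 or 1. Spry1 stood at 40.6 and 42.4 CPM, against 28.7 CPM.

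Dusp6 followed the number of placode genes closely. Its wildtype level was 26.9 CPM with 0 of the 8 genes, 83.8 CPM with 1, 105 CPM with 2, 236 CPM with 3, 258 CPM with 4 and 276 CPM with 5 or more. Etv4 over the same cells had 6.72, 28.8, 34.5, 69.8, 102 and 88.9 CPM. Both were thus higher already in cells with 1 placode gene than in cells with none. Spred1 over the same cells stayed between 19.5 and 31.7 CPM. The number of genes detected also depends on depth, but placode cells were not the deeper ones, with a median of 14097 UMIs beside 16014 UMIs in cells with 0 or 1.

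**Figure D2:**
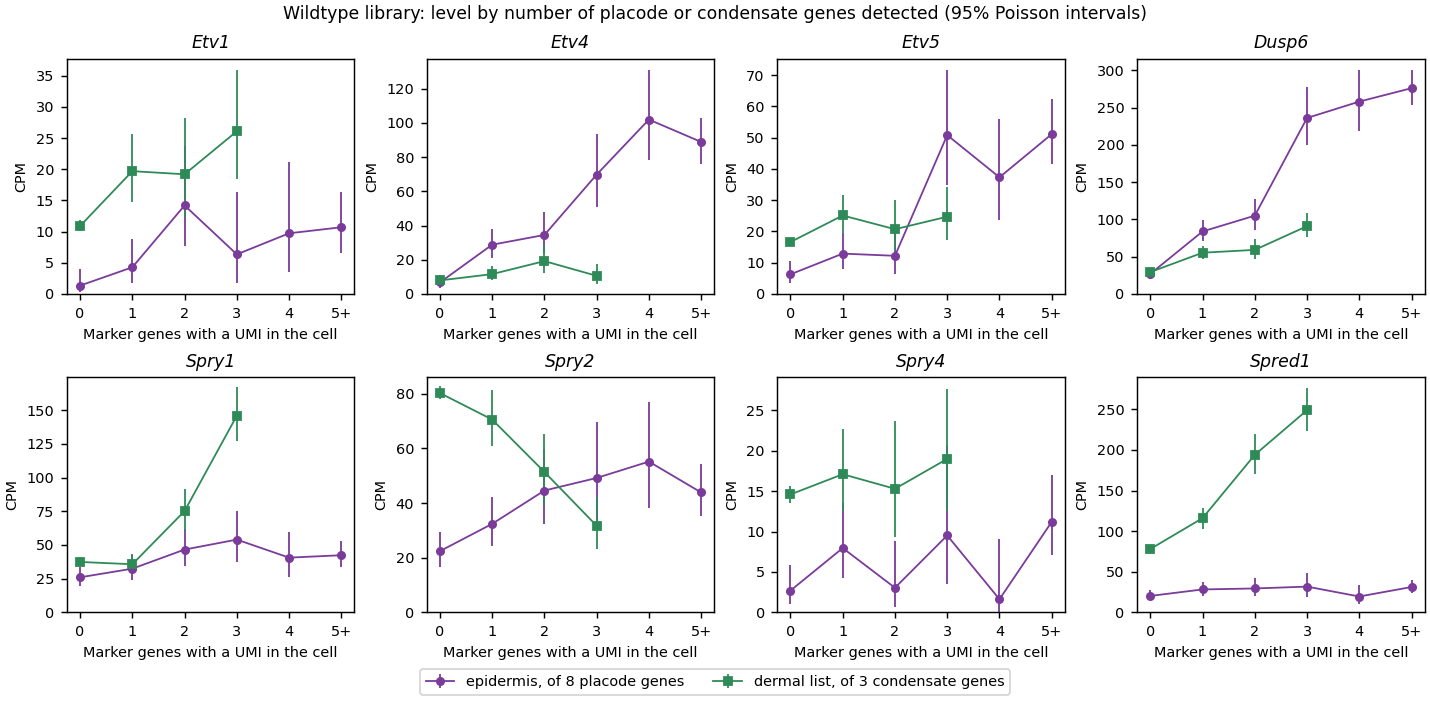
Level in the wildtype library (CPM, vertical axis) by the number of marker genes with a UMI in the cell (horizontal axis), for epidermal cells (circles, of 8 placode genes) and dermal list cells (squares, of 3 condensate genes), with 95% Poisson intervals. Dusp6 climbs to 276 CPM with placode genes and 90.9 CPM with condensate genes, Spry1 and Spred1 climb with condensate genes to 146 and 249 CPM, and Spry2 is at 31.7 CPM with all 3 condensate genes against 80.3 CPM with none.

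The comparison of genotypes was then made in epidermal cells with 0 or 1 placode genes, 144 mutant and 223 wildtype cells. Of 7 measured response genes 4 were at least 1.5-fold lower in the mutant, against 10.6% of all measured genes, with a median log2 ratio of -1.45 beside -0.08 for all. None was higher by that much, against 7.28%. Dusp6 had 15 UMIs (4.14 CPM) in these mutant cells and 197 UMIs (51.0 CPM) in these wildtype cells, a log2 ratio of -3.62 (-4.49 to -2.87). Etv4 had 1 UMI in the mutant and 62 in the wildtype (-5.86, -11.19 to -3.33). Etv5 had 12 UMIs in the mutant and 35 in the wildtype (-1.45, -2.53 to -0.47), and Spry4 had 1 UMI in the mutant and 19 in the wildtype (-4.16, -9.53 to -1.50). Dusp6 and Etv4 were thus lower also among cells outside the placode definition. These cells were not free of placode transcripts. Of the placode genes with 20 or more UMIs there, Bmp2 had 3 in the mutant and 21 in the wildtype. Ltb had 28 in the mutant and 63 in the wildtype, and Wnt10b went the other way, with 83 and 55. Median depth was 23399 UMIs in the mutant and 16014 in the wildtype, so placode genes were more easily missed in the wildtype. The part of both in the result was not tested. Spry1 (-0.51), Spry2 (-0.42) and Spred1 (-0.31) lay between the limits, though Spry1 passed 1.5-fold with means over cells (-0.90) and with cells of 0 to 3 placode genes (-0.85). Etv1 had 0 UMIs in the mutant and 10 in the wildtype, under the 20 UMIs needed. With the stricter rule of no placode gene at all, Dusp6 had 6 UMIs (3.38 CPM) in 78 mutant cells and 60 UMIs (26.9 CPM) in 129 wildtype cells. It was then the 1 measured gene of 4 that was lower by 1.5-fold, with Etv4 at 0 UMIs in the mutant and 15 in the wildtype. The share of all measured genes lower under that rule is not given.

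In the dermis, whose cells were not targeted, 3 of the 8 genes were at least 1.5-fold lower in the mutant, against 5.64% of all measured genes. Their median log2 ratio was -0.46, beside 0.03 for all measured genes, and none was 1.5-fold higher, against 10.9%. Etv4 had 141 UMIs (1.74 CPM) in mutant dermis and 526 UMIs (8.37 CPM) in wildtype dermis, 4.82-fold lower in the mutant, with a log2 ratio of -2.27 (-2.55 to -2.0). The other PEA3 factors lay between the limits, Etv5 at 11.8 CPM in the mutant, against 17.2 CPM in the wildtype (-0.54, -0.67 to -0.42), and Etv1 at 9.03 CPM in the mutant, against 11.8 CPM in the wildtype (-0.38, -0.53 to -0.23). Among the inhibitors Dusp6 and Spry1 were lower. Dusp6 had 1159 UMIs (14.3 CPM) in mutant dermis and 2038 UMIs (32.4 CPM) in wildtype dermis (-1.18, -1.29 to -1.08), and Spry1 had 1822 UMIs (22.4 CPM) in mutant dermis and 2550 UMIs (40.6 CPM) in wildtype dermis (-0.85, -0.94 to -0.77). Spry2 (-0.09), Spry4 (0.09) and Spred1 (-0.11) differed by at most 1.08-fold. The Sprouty family was thus split, Spry1 being lower while Spry2 and Spry4 were level, under each of the 3 ways of scaling tried. Fibroblast-cluster cells off the authors' list gave the same 3 lower genes (against 4.13% of measured genes), Etv4 at -3.34, Dusp6 at -0.76 and Spry1 at -0.85. Etv4 there had 4 UMIs in the mutant and 25 in the wildtype. Of these cells 180 of 536 mutant and 96 of 443 wildtype were in the top 8% of doublet scores. Erythroid markers summed to 44500 CPM in the mutant, against 21500 CPM in the wildtype. The part of both in the result was not tested.

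Cells with condensate genes were found in the wildtype dermis and hardly in the mutant dermis. Of the listed dermal cells, 0 in the mutant and 258 in the wildtype had UMIs of at least 2 of the transcription factor genes Sox2, Sox18 and Foxd1, and 42 mutant and 227 wildtype cells had exactly 1. In the wildtype, 5 of the 8 response genes were at least 1.5-fold higher in the 258 condensate-gene cells than in the 4815 cells with none (against 20.0% of measured genes, with a median log2 ratio of 0.98 beside 0.01 for all) and 1 was lower (against 20.1%, so 1 of 8 is no more than the background). Spry1 had 112 CPM in cells with at least 2 condensate genes and 37.4 CPM in cells with none, a log2 ratio of 1.58 (1.41 to 1.76). Spred1 had 223 CPM in the cells with and 78.0 CPM in those without (1.51, 1.39 to 1.64), and Dusp6 had 75.7 CPM in the cells with and 29.3 CPM in those without (1.37, 1.15 to 1.58). These 3 inhibitors were higher by 2.59-fold to 3.00-fold. Etv1 (1.06) and Etv4 (0.89) were also higher, while Etv5 (0.46) and Spry4 (0.25) lay between the limits. The 1 lower gene was Spry2, at 41.1 CPM in the cells with and 80.3 CPM in those without (-0.97, -1.25 to -0.70). Fibroblast markers summed to 7460 CPM in the condensate-gene cells and 16900 CPM in the cells with none, and their part in the result was not tested.

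Graded by condensate genes, the wildtype level of Spred1 was 78.0 CPM with 0, 116 CPM with 1, 194 CPM with 2 and 249 CPM with all 3. Spry1 had 37.4, 35.7, 75.2 and 146 CPM over the same cells, and Spry2 had 80.3, 70.6, 51.4 and 31.7 CPM. Spred1 and Spry2 thus ran in opposite directions over the 4 groups of cells. Etv4 did not keep a trend, with 7.91, 11.6, 19.2 and 10.6 CPM, and its ratio came under 1.5-fold (0.35) when all 3 genes were asked for. There the other side was all cells with fewer than 3 condensate genes. The ratio of Spry2 came under 1.5-fold (-0.52) when 1 gene sufficed, against cells with none. Placode and condensate differed in which inhibitors stood highest: Spred1 was between the limits with placode genes and 2.85-fold higher with condensate genes, and Spry2 was 1.77-fold higher with placode genes and 1.95-fold lower with condensate genes. Those are separate comparisons within 1 library, and the difference between them was not tested.

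The genotype comparison was repeated without the condensate-gene cells. Among 4986 mutant and 4815 wildtype dermal cells with none of the 3 genes, the same 3 genes were lower in the mutant, against 4.69% of measured genes, and the median was -0.38 beside 0.04 for all. Etv4 had 1.75 CPM in mutant and 7.91 CPM in wildtype cells (-2.17, -2.46 to -1.90), Dusp6 had 14.3 CPM in mutant and 29.3 CPM in wildtype cells (-1.03, -1.14 to -0.92), and Spry1 had 22.4 CPM in mutant and 37.4 CPM in wildtype cells (-0.74, -0.83 to -0.65). Cluster 5, nearly all wildtype, still held 1309 of those wildtype cells, and within the wildtype they had 11.6 CPM of Etv4 against 6.72 CPM in the other cells, and 41.6 CPM of Dusp6 against 25.3 CPM, the 2 of the 8 genes higher by 1.5-fold there (against 6.48% of measured genes). Without that cluster, a comparison chosen after seeing the data, the 3 genes were still lower (against 5.27% of measured genes), Etv4 at -1.93, Dusp6 at -0.82 and Spry1 at -0.71. Etv4, Dusp6 and Spry1 were thus lower in the mutant also among dermal cells with no UMI of the 3 condensate genes and no place in cluster 5. Before cluster 5 was left out, the cells with none of the 3 genes had medians of 15560 UMIs in the mutant and 11261 in the wildtype. Condensate genes were thus more easily missed in the wildtype. Gal had 72 UMIs in those wildtype cells and 6 in the whole mutant dermis. The part of both in the result was not tested. Cluster 1, nearly all mutant (1721 mutant and 86 wildtype listed cells), was kept, so the 2 sides were still unlike mixtures of cells. Within cluster 1 the ratios were -0.25 for Etv4, 0.19 for Dusp6 and -1.17 for Spry1. Fibroblast markers summed to 22300 CPM in mutant and 16900 CPM in wildtype cells with none of the condensate genes, and their part in the result was not tested. In cells with exactly 1 condensate gene, 42 in the mutant and 227 in the wildtype, 5 of the 8 genes were lower in the mutant, against 15.6% of measured genes, and Dusp6 there had 6 UMIs in the mutant and 152 in the wildtype (-2.80, -4.27 to -1.65). Of the 5, Etv1 had an interval that included 0 (-0.72, -1.93 to 0.31). These cells differed in more than the 8 genes, with condensate markers at 139 CPM in the mutant, against 599 CPM in the wildtype, Foxd1 with 4 UMIs in the mutant and 245 in the wildtype, Gal with 0 in the mutant and 142 in the wildtype, and fibroblast markers at 22100 CPM in the mutant, against 12900 CPM in the wildtype. Their part in the result was not tested.

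**Figure D3:**
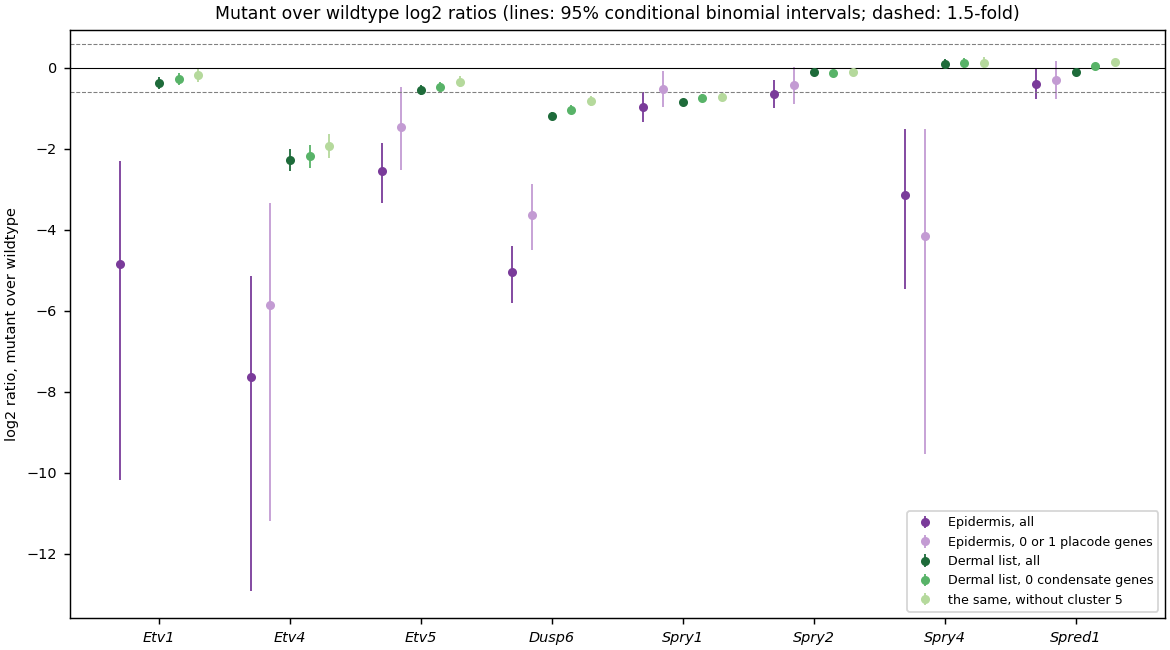
Mutant over wildtype log2 ratio of each gene (vertical axis, with 0 as no difference and dashed lines at 1.5-fold) in epidermis, in epidermis with 0 or 1 placode genes, in the dermal list, in dermal cells without condensate genes and in those without cluster 5, with 95% conditional binomial intervals. Etv1 has no point for epidermal cells with 0 or 1 placode genes, where it had 10 UMIs. Etv4 and Dusp6 lie below the lower dashed line in all 5 sets of cells, Spry1 in 4 of them, and Spry4 in the epidermal sets only.

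The 6 dermal clusters with enough cells of both libraries were also compared one by one. Spry1 had a negative ratio in all 6, at -0.62 in cluster 0, -1.17 in cluster 1, -1.10 in cluster 3, -0.51 in cluster 4, -0.91 in cluster 7 and -0.61 in cluster 10, past 1.5-fold in all of these but cluster 4. Of all measured genes, 4.53% in cluster 0, 14.9% in cluster 1, 6.37% in cluster 3, 6.14% in cluster 7 and 7.02% in cluster 10 were lower by that much. Dusp6 was lower by 1.5-fold in 4 of the 6, clusters 0, 3, 7 and 10, with ratios between -1.03 and -0.74, and it stood at -0.58 in cluster 4 and 0.19 in cluster 1. In cluster 10 Dusp6 had 19 UMIs in the mutant and 36 in the wildtype, with an interval that included 0 (-1.70 to 0.02). Cluster 1, led by Igfbp5 and Rspo1, held 1721 mutant and 86 wildtype listed cells, so its wildtype values rest on few UMIs (16 of Dusp6). Etv4 was lower by 1.5-fold in the 2 clusters of dividing cells, cluster 3 (led by histone genes) with 2.42 CPM in the mutant, against 10.8 CPM in the wildtype, and cluster 7 (led by the mitotic genes Pttg1 and Cdkn3) with 4.01 CPM in the mutant, against 13.5 CPM in the wildtype. It was at most 0.552 CPM in clusters 0 and 4 in either library. In cluster 10 Etv4 had 0 UMIs in the mutant and 11 in the wildtype, under the 20 UMIs needed. In cluster 1 its ratio was -0.25, on 3 wildtype UMIs. Spry2 differed by less than 1.5-fold in all 6 clusters, while Spry4 had ratios on both sides, at least 1.5-fold higher in clusters 1 (as were 11.9% of measured genes) and 4 (6.85%) and lower in cluster 10.

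**Figure D4:**
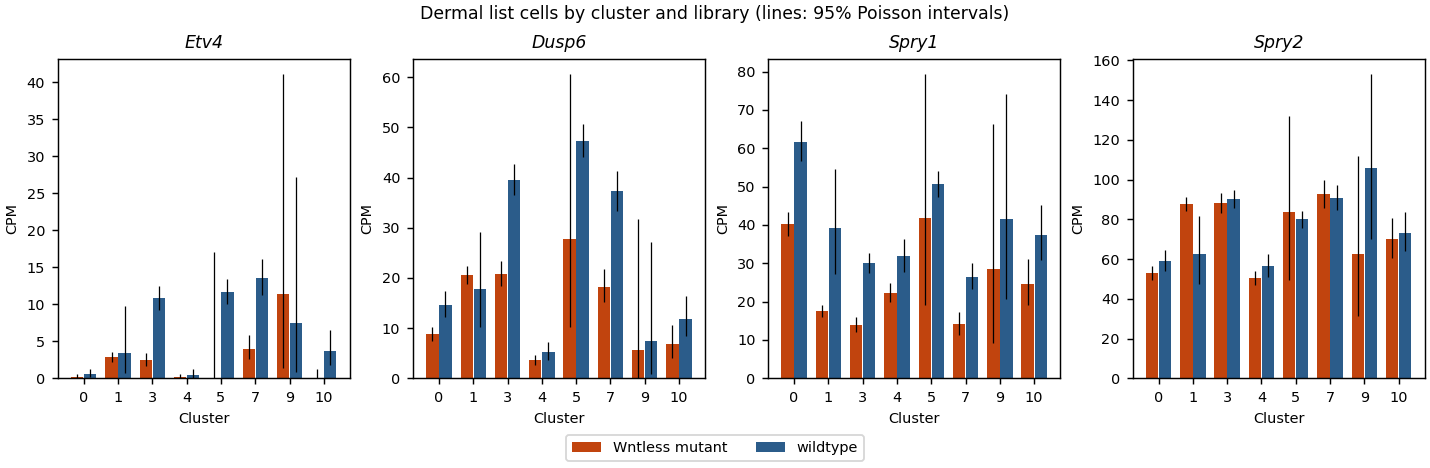
Level (CPM, vertical axis) of Etv4, Dusp6, Spry1 and Spry2 in listed dermal cells by cluster (horizontal axis), with the Wntless mutant bar left of the wildtype bar and 95% Poisson intervals. Spry1 has the lower bar in the mutant in each of the 6 clusters compared (0, 1, 3, 4, 7 and 10), wildtype Etv4 is highest in clusters 3, 5 and 7, and Spry2 differs by less than 1.5-fold in those 6. Clusters 5 (mutant) and 9 hold few listed cells and have wide intervals.

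The share of positive cells in the dermis differed most in the same 3 genes. After thinning each cell to 9000 UMIs, which left out 367 mutant and 1300 wildtype dermal cells as too shallow, a UMI of Etv4 was seen in 1.39% of mutant cells (1.08 to 1.77) and 6.58% of wildtype cells (5.83 to 7.39). Without thinning the shares were 2.55% in the mutant and 8.66% in the wildtype. Dusp6 was seen in 11.3% of mutant and 21.9% of wildtype dermal cells (18.2% and 25.8% without thinning), and Spry1 in 17.2% of mutant and 26.4% of wildtype dermal cells (27.1% and 32.0% without thinning). Etv5 differed less, at 9.68% of mutant (8.84 to 10.6) and 13.3% of wildtype dermal cells (12.2 to 14.4), with intervals apart. Without thinning its shares were 15.2% and 16.6%. Spry2, by contrast, was seen in 45.1% of mutant and 47.3% of wildtype dermal cells. For Etv1, Spry2, Spry4 and Spred1 the intervals of the libraries overlapped after thinning. In epidermis, where thinning left out 6 mutant and 42 wildtype cells, Dusp6 was seen in 4.55% of mutant cells (1.85 to 9.14) and 54.1% of wildtype cells (49.4 to 58.8), and without thinning in 8.75% of mutant and 63.4% of wildtype cells. Etv4 was seen there in 0 of 154 mutant cells, which allows a share of up to 1.95% at 3 cells of the total and 2.37% by the two-sided Clopper-Pearson interval, and in 28.9% of wildtype cells. In wildtype placode cells the share of Dusp6 was 83.9% and that of Etv4 44.6%. In wildtype condensate-gene cells Spred1 was seen in 86.2%, Spry1 in 49.4% and Dusp6 in 47.7%.

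Free RNA in droplets can give UMIs in cells that do not make a gene. Erythroid-like cells, with medians of 12107 UMIs in the mutant and 8040 UMIs in the wildtype, gave after thinning 0 positive cells of 1043 in the mutant and of 247 in the wildtype for both Etv4 and Dusp6. By the same 2 limits that allows up to 0.288% or 0.353% in the mutant and 1.21% or 1.48% in the wildtype. For the other 6 genes their share was at most 0.863% in the mutant and 1.21% in the wildtype. Macrophage-like cells, with medians of 24500 UMIs in the mutant and 16096 UMIs in the wildtype, gave Etv4 in 0 of 369 mutant cells (up to 0.813% or 0.995%) and in 2.04% of wildtype cells. The Etv4 share in mutant dermis, 1.39%, lies above both limits for mutant macrophage-like and erythroid-like cells and below the share in wildtype macrophage-like cells. That wildtype share comes from the other library, so it gives no level of free RNA for mutant dermis. Wildtype macrophage-like cells held 25 UMIs of Etv4, and 2 were left without the cells of highest doublet score. Their fibroblast markers summed to 2510 CPM with those cells and 276 CPM without them. The part of free RNA in the 2.04% was not tested.

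**Figure D5:**
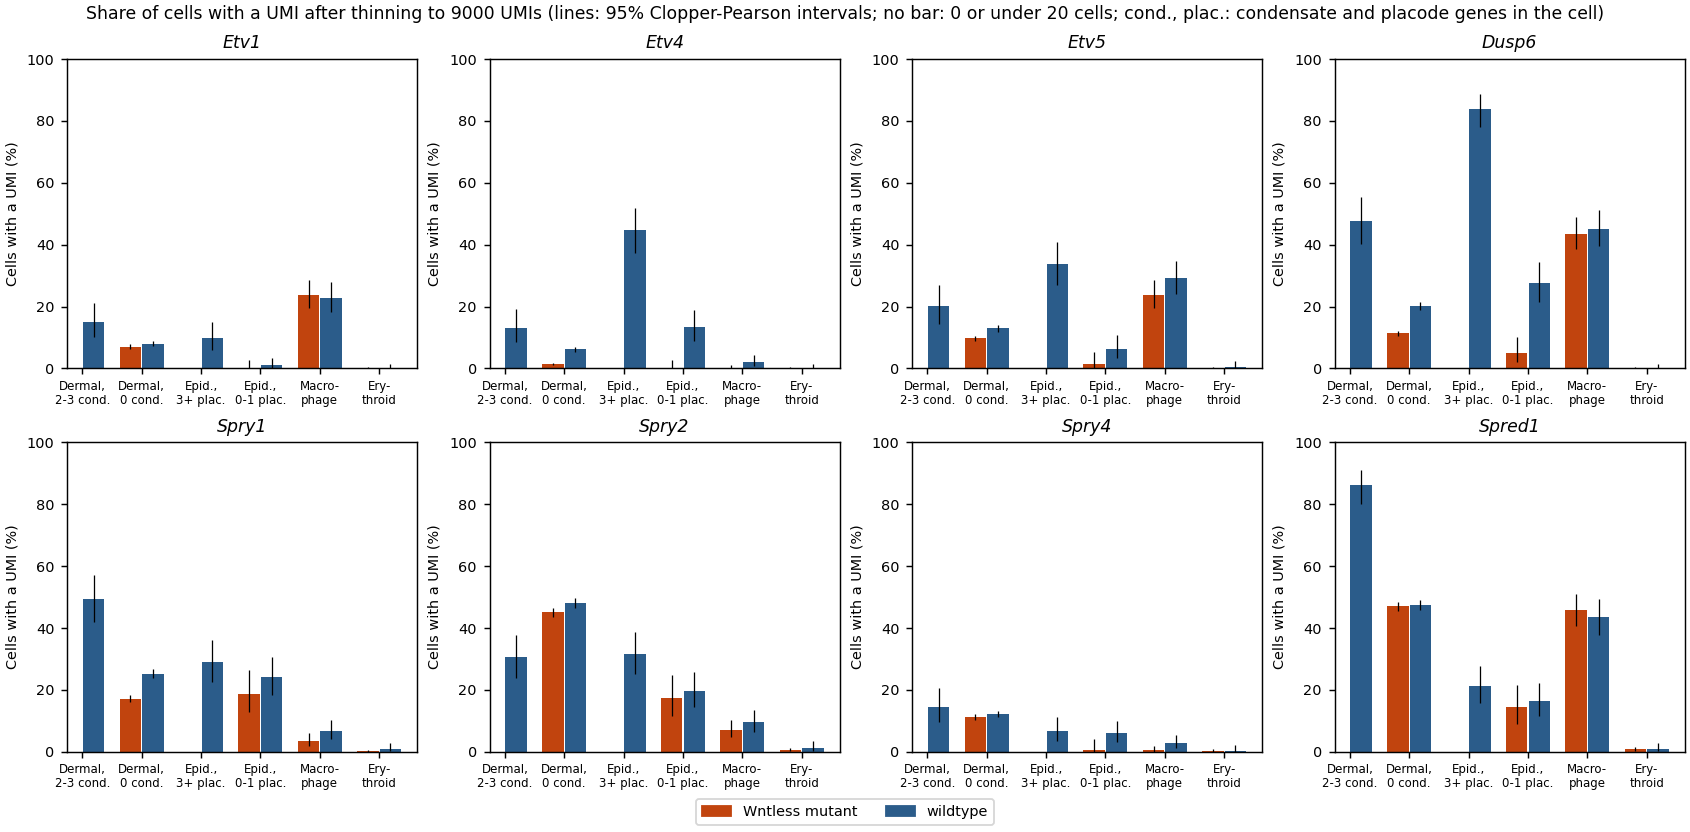
Share of cells with at least 1 UMI after thinning to 9000 UMIs (percent, vertical axis) in wildtype dermal cells with 2 or 3 condensate genes, dermal cells with none, wildtype epidermal cells with 3 or more placode genes, epidermal cells with 0 or 1, macrophage-like and erythroid-like cells, with the Wntless mutant left of the wildtype and 95% Clopper-Pearson intervals. Sets with under 20 cells have no bar. Dusp6 reaches 83.9% in placode cells and Spred1 86.2% in condensate-gene cells, and erythroid-like cells are near 0 for all 8 genes.

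In muscle-like cells (478 mutant, 513 wildtype) the pattern was another. Etv1 was 2.32-fold higher in the mutant, with 188 UMIs (15.8 CPM) in mutant cells and 62 UMIs (6.81 CPM) in wildtype cells (log2 ratio 1.21, 0.79 to 1.65), and it was the 1 gene of 7 measured past 1.5-fold upward, against 4.22% of all measured genes. None was lower by that much, against 5.65%. The other 6 had ratios between -0.39 (Dusp6) and 0.29 (Spred1), and Etv4 had 1 UMI in the mutant and 8 in the wildtype. Cells were then set apart by Myog, a transcription factor gene of differentiating myoblasts, a split chosen after the values were seen. With a Myog UMI, in 42.5% of mutant and 41.9% of wildtype muscle-like cells, Etv1 had 10.2 CPM in the mutant, against 4.58 CPM in the wildtype. Without one it had 20.1 CPM in the mutant, against 8.50 CPM in the wildtype, so the ratio was alike in both (1.15 and 1.24). Muscle markers, 13 of 13 with UMIs in both libraries, summed to 4070 CPM in the mutant, against 5410 CPM in the wildtype, and their part in the result was not tested.

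In macrophage-like cells 4 of 8 genes were at least 1.5-fold lower in the mutant, against 11.4% of all measured genes. Etv4 had 3 UMIs in mutant and 25 in wildtype macrophage-like cells (log2 ratio -3.83, -6.20 to -2.11), and Spry1, Spry2 and Spry4 had ratios of -1.28, -1.07 and -1.55. These 4 genes had 3 to 107 UMIs in a library, where each of the other 4 had 187 or more. Fibroblast markers, 10 of 10 with UMIs in both libraries, summed to 1360 CPM in the mutant, against 2510 CPM in the wildtype macrophage-like cells, and keratinocyte markers to 16.6 CPM in the mutant, against 144 CPM in the wildtype. Without the top 8% of doublet scores the fibroblast sums were 219 CPM in the mutant, against 276 CPM in the wildtype, and Etv4 was left with 0 UMIs in the mutant and 2 in the wildtype. Spry1 then had 20 UMIs in the mutant and 18 in the wildtype (-0.91), Spry2 had 26 in the mutant and 20 in the wildtype (-0.68), and Spry4 had 1 in each. Those other 4, Dusp6 (0.11), Etv1 (0.05), Etv5 (-0.05) and Spred1 (0.18), were between the limits.

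In the vessel wall, the mural-like cells had 2 of 8 genes lower in the mutant, against 3.96% of measured genes. Etv4 had 13 UMIs in mutant and 26 in wildtype mural-like cells (-1.33, -2.41 to -0.31), and Etv5 had 50 UMIs in the mutant and 66 in the wildtype (-0.73, -1.29 to -0.17). Spry1 and Spry4, which had their highest mutant levels in these cells, were between the limits, each at 0.21. Endothelial-like cells, 97 in the mutant and 64 in the wildtype, had Etv1 and Spry2 lower (2 of 8 genes, against 5.98%), but the intervals of both included 0. Their Dusp6 level was 70.2 CPM in the mutant, against 61.4 CPM in the wildtype, and their Etv4 level 15.5 CPM in the mutant, against 19.0 CPM in the wildtype. Etv4 in mutant skin was thus highest in a class where it differed by less than 1.5-fold from the wildtype.

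Of the remaining types, mast- or other myeloid-like cells had 3 of 8 genes lower (against 3.73% of measured genes), and the counting interval of the ratio was below 0 for 1 of them, Spry2 (-0.81, -1.36 to -0.26). Schwann- or neural crest-like cells had 2 of 7 lower (against 4.20%) and Spry1 higher (against 9.23%), all with intervals that included 0. That Spry1 ratio rested on 24 UMIs in the mutant and 7 in the wildtype, beside fibroblast markers at 4160 CPM in the mutant, against 1660 CPM in the wildtype, and 9 UMIs in the mutant and 5 in the wildtype remained without the top 8% of doublet scores. Without those cells Spry2 stood at -0.98 in place of -0.14. Dusp6 was level in these cells, at 62.6 CPM in the mutant, against 63.1 CPM in the wildtype. Melanoblast-like cells, 88 in the mutant and 44 in the wildtype, had Etv5, Dusp6 and Spry1 lower, 3 of 6 measured genes against 15.6%, again with intervals that included 0. Fibroblast markers summed to 7090 CPM in the mutant, against 2670 CPM in the wildtype of these cells, and melanoblast markers to 1920 CPM in the mutant, against 5240 CPM in the wildtype. Without the top 8% of doublet scores Dusp6 stood at 0.07 in place of -0.65 and Spry1 no longer reached 20 UMIs, while Etv5 was at -1.0. Haemoglobin and other erythroid markers made up 319000 CPM in the mutant, against 292000 CPM in the wildtype of these cells. In erythroid-like cells Spred1 alone reached 20 UMIs, with 13 in the mutant and 8 in the wildtype, and was lower, as were 56.7% of measured genes there.

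The rest of the pathway was counted in lists of 82 other genes. In the dermis no receptor (0 of 5 measured) and no member of the signalling cascade (0 of 20) passed 1.5-fold. Fgfr1, the receptor gene with the most UMIs in the dermis, stood at 129 CPM in mutant and 172 CPM in wildtype dermis (-0.41). Of 14 measured Fgf genes 1 was lower (against 5.64% of all measured genes) and 4 were higher (against 10.9%) in the mutant. That list held genes by the name Fgf, whether or not their products act as receptor ligands. Among the higher ones were Fgf18 at 14.3 CPM in the mutant, against 7.11 CPM in the wildtype (1.0, 0.84 to 1.16) and Fgf7 at 29.2 CPM in the mutant, against 17.2 CPM in the wildtype (0.76). The higher Fgf16, named here after its values were seen, rested on 14 UMIs in the mutant and 7 in the wildtype, with an interval of -0.77 to 2.18. The lower one was Fgf3, with 5 UMIs in the mutant and 73 in the wildtype. Among 20 measured genes of other ERK feedback and response, 5 were lower and 1 higher, against the same 5.64% and 10.9%. Dusp4, a nuclear phosphatase of ERK, had 23 UMIs in the mutant and 85 in the wildtype (-2.25, -2.99 to -1.58). Immediate early genes, which ERK and also tissue handling induce, were lower in 5 and higher in 2 of 14, with Egr3 at 1.95 CPM in the mutant, against 6.11 CPM in the wildtype (-1.65) and Fosb higher in the mutant (0.80). The list medians were 0.32 for Fgf genes, -0.22 for receptors, -0.05 for the cascade, -0.11 for other feedback and response genes and -0.37 for immediate early genes, beside 0.03 for all measured genes.

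In the epidermis, where 14.9% of all measured genes were lower and 7.74% higher in the mutant, 3 of the 22 Fgf genes reached 20 UMIs. The 1 of these that was lower in the mutant was Fgf20, with 0 UMIs in the mutant and 342 in the wildtype. That is at least 59.3-fold lower, taking 3 counts over the class as the limit. Fgfr1 had 10.5 CPM in mutant and 39.1 CPM in wildtype epidermis (-1.90, -2.39 to -1.44), and it was the 1 of 3 measured receptors that was lower. Fgfr2, the receptor typical of epithelia, had 136 CPM in the mutant, against 104 CPM in the wildtype (0.38). Of 19 measured cascade genes 1 was lower, Map2k1, which encodes MEK1, at 13.1 CPM in the mutant, against 24.8 CPM in the wildtype (-0.92). Other feedback and response genes were lower in 7 and higher in 1 of 15. Among the lower ones Ier3 stood at 5.73 CPM in the mutant, against 15.6 CPM in the wildtype, and Flrt3 stood at 37.5 CPM in the mutant, against 73.6 CPM in the wildtype. Immediate early genes were lower in 5 and higher in 3 of 12, with Egr1 at -1.22 and Fosb at 1.57. The list medians were 0.28, -0.17, -0.11, -0.39 and -0.49 in the same order of lists, beside -0.10 for all measured genes.

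As a description of where each gene was read, its log2(CPM + 1) level was compared with that of all other genes with 200 or more UMIs over 20 points, 10 classes in both libraries. The points of a class share its cell type and those of a library share its depth, so the values carry no test. Both erythroid-like points were low for all 8 genes (at most 1.60 CPM). Low points shared by many genes can raise r, and r without them is not given. Spred1 was most like Ghdc (Pearson r 0.98) and Chid1 (0.97), Spry2 most like Snhg18 and Fkbp11 (both 0.96), Spry1 most like Id1 and Snai2 (both 0.95), and Spry4 most like Trib2 and Timp1 (both 0.95). Etv5 was most like Rnf166 and Flvcr1 (both 0.94), Etv1 most like Mmd and Ap1s2 (both 0.91) and Dusp6 most like Irf2 and Vps37c (both 0.90). Etv4 had the weakest likeness, with Madcam1 (0.78) and Hip1r (0.75). Among the 8 genes themselves r was highest for Etv5 with Spred1 (0.88), Spry1 with Spry2 (0.86) and Etv5 with Dusp6 (0.85), and lowest for Etv4 with Spred1 (0.18).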

How the data were processed

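Whole-number UMI counts per gene and barcode were deposited by the authors as filtered matrices of 1 Wntless mutant and 1 wildtype library, the output of Cell Ranger 6.1.2, per the file headers. The submitters' processing notes name mm10 and Seurat. The deposited lists of dermal barcodes were used as given, and how they were chosen is not given in the sources used here. The members and gene lists were chosen with earlier results of these data known.

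Both matrices were clustered together with scanpy 1.11.5 and leidenalg 0.10.2 (counts scaled to 10000 a cell, 2000 variable genes, 30 principal components, 15 neighbours, resolution 0.5) without batch correction, giving 21 clusters. A cluster was named from at least 3 markers of 1 type among its top 50 genes, so names are rebuilt and may differ from the study's. Unnamed clusters of low depth, 1559 mutant and 662 wildtype cells, entered no class. Fibroblast clusters are those with at least 40% of cells on the dermal lists. Scrublet called 162 mutant (1.55%) and 188 wildtype (2.07%) barcodes as doublets. These were kept, and leaving out the top 8% of scores was an alternative. The libraries shared 19 barcodes.

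UMIs were summed over the cells of a class and library and divided by the class total (CPM). Exact Poisson intervals are given for CPM, exact conditional binomial intervals for log2 ratios and Clopper-Pearson intervals for shares, each at 95% and for counting error only. A ratio was called at 1.5-fold with at least 20 UMIs over both sides, and against a side with 0 UMIs it was taken against 3 counts over that side. With 1 library a genotype no test was made. Shares were taken after thinning cells to 9000 UMIs. All 8 genes are named in every class compared. Of the other pathway genes, each list's 4 largest absolute ratios among genes with 50 or more UMIs could be named, and the 2 genes most like each of the 8 are named. The steps were tested on simulated data. Alternatives were other scalings, means over cells, stricter cell quality, doublet scores, thinning, collagen content, other definitions of placode and condensate cells and Leiden resolution 1.0. Those without cluster 5, by Myog and by doublet score within single classes were chosen after seeing the data.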

Additional observations from a re-analysis of the deposited data

Results flagged for a closer look

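Etv1 moved in opposite directions in 2 cell types. Its mutant over wildtype log2 ratio was 1.21 in muscle-like cells (188 UMIs in the mutant, 62 in the wildtype) and -4.84 in epidermis (1 UMI in the mutant, 55 in the wildtype). Each genotype was 1 library, and the difference between the cell types was not tested.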

How the results depend on the processing

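No paired analysis was possible because the labels give 1 sample per group, and no library could be left out. Of the ratios of single genes under another setting, 391 kept their direction and side of 1.5-fold, 11 came under it and 5 passed it, and none changed sign after being called. Of the summary counts, 59 stayed within 1.5 times and 5 moved. In epidermal cells with 0 or 1 placode genes, 4 genes were lower, against 2 of 5 measured after thinning to 9000 UMIs and 1 of 4 measured in cells with no placode gene. In muscle-like cells 0 were lower, against 1 at Leiden resolution 1.0 (Spry2 at -0.69, against -0.25). In the 7 other named types together, 17 of 46 measured pairs of gene and type were lower, against 6 of 26 after thinning and 9 of 36 without the top 8% of doublet scores. Fewer genes reached 20 UMIs in all of these but muscle. Before such changes, the share of all measured genes that were lower ran from 3.73% in mast- or other myeloid-like to 56.7% in erythroid-like cells. No such share is given for the changed settings, so their counts have no background beside them. With the shared dermal clusters weighted alike, Etv4 (-1.74), Dusp6 (-0.69) and Spry1 (-0.77) were the lower dermal genes. Muscle-like Etv5 passed 1.5-fold with means over cells (0.60) and Spred1 after thinning (0.85). The dermal counts of lower genes were 3 under every setting tried. Depth limits the epidermal values of Etv1, Etv4 and Spry4, which had 1 to 3 UMIs in the 160 mutant cells.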
